A study of Bos taurus with 12 samples.

Results

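Proliferation genes are the 38 genes that dividing cells use to copy their DNA and to separate the copies, and they were followed here in endometrial biopsies of old, young and contemporary cows. The members were named by symbol (MCM2 to MCM6, PCNA, CDK1, MKI67 and others), with earlier results of these data known. They were found by that symbol in the annotation of the array, a search that used no measured value. All 38 were on the array, as 43 of its 26323 transcripts and 96 of the 61333 probes kept, among 17193 gene symbols. The endometrium, the lining of the uterus, was sampled with biopsy forceps on Day 15 of the estrous cycle, when it would receive a conceptus, and total RNA of each animal was hybridised to its own 1-colour Agilent array. Every array is 1 animal, so n counts animals.

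Young females (YF, n = 4, animals 1069, 1070, 1072 and 1127) were 4 to 5 years old and primiparous, and were sampled more than a year after calving. Old females (OF, n = 4, animals 0233, 0234, 0245 and 2258) were 13 to 14 years old and nulliparous, so age and parity cannot be told apart. Both groups were Holstein clones made from the cells of 1 donor cow, and all had been synchronised with the Crestar method. A contemporary group (CP, n = 3, animals 1068, 1128 and 1129) was sampled on the same day per the labels, but the sources used here do not state its age, its parity or whether it was cloned. A further contemporary animal, 1111, was left out by the authors for a divergent phenotype and enters no comparison below unless it is named. The 12 arrays lay on 2 slides, with 2 YF and 1 OF on slide 1 and 2 YF, 3 OF and the 3 CP on slide 2.

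A cell that is to divide first loads the MCM helicase on its origins, then copies its DNA with nucleotides made by enzymes such as RRM2 and TYMS, and at last builds a spindle under the control of cyclin B, CDK1 and the Aurora and Polo kinases. Most of these genes are transcribed in waves, those of DNA replication under E2F factors and those of mitosis under FOXM1 and MYBL2, so tissue with many dividing cells holds much of their RNA. In the ruminant uterus the epithelium and stroma proliferate early in the cycle, and the tissue turns to secretion under progesterone in the luteal phase. In a biopsy, fewer cells of a type and less RNA per cell cannot be told apart.

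Values below are log2 of the processed intensity minus the 75th percentile of the array, so 0 is the brightness that 75% of the spots stay below. Each probe has its own brightness, so a value is compared between animals for 1 gene and never between genes. A probe counted as detected on an array when the scanner software called it well above background, which it did for 71.5% to 74.9% of all probes on each array. Before any comparison it must be said that 2 of the OF stood apart. The summed level of 6 smooth muscle markers (ACTA2, MYH11, TAGLN, CNN1, DES and SMTN) was 10.01 in OF 2258 and 8.51 in OF 0234, against 4.56 to 6.04 in the other 9 animals in use. The summed level of 6 epithelial markers was 3.35 in OF 2258 and 4.18 in YF 1069, against 5.24 to 6.21 in the others. All markers of both lists were detected on all 11 arrays, as were the 7 stromal ones. For MCM6, PCNA, RRM2, CCNE2, BIRC5, UBE2C, HMMR, TOP2A and E2F1 the OF minus YF differences were therefore also taken without animals 0234 and 2258. They are given where that moved them by over 1.5 times or changed their sign. For the OF minus YF differences of the other members the value without these 2 animals is not given, so those differences may rest on them.

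The first result is which members could be measured at all. MKI67, the nuclear protein Ki-67 that pathologists stain to count cycling cells, was not well above background with any of its 4 probes on any of the 12 arrays. The same held for CENPF, a kinetochore protein, and ASPM, a spindle pole protein. MKI67 lies on chromosome 26 (chr26:47851223-47879459, assembly UMD3.1), and its 2 annotated transcripts are read by 3 different probe sequences of 60 bases. They are shown beside probes of members that were detected, CCNA2 (chr6:3413086-3419194), MCM6 (chr2:61821905-61852264) and UBE2C (chr13:75306757-75310188), because those carry results described further on. Each probe shown has at least 1 reading frame with no stop codon, no part is singled out by capitals, and the annotation gives no position within the transcript.
MKI67 probe 1: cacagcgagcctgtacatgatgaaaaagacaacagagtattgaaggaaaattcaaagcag
MKI67 probe 2: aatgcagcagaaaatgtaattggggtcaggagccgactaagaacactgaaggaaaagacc
MKI67 probe 3: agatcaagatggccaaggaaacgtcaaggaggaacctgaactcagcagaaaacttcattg
CCNA2 probe 1: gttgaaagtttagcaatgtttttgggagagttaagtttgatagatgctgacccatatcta
CCNA2 probe 2: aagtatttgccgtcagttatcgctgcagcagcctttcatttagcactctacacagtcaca
MCM6 probe 1: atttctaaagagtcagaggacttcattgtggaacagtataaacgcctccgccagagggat
MCM6 probe 2: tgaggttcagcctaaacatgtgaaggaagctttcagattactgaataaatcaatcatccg
UBE2C probe 1: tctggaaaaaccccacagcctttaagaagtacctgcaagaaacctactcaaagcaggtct

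All 10 genes of DNA replication (MCM2, MCM3, MCM4, MCM5, MCM6, GINS2, PCNA, RRM2, TYMS and TK1) were detected by at least 1 probe on every one of the 12 arrays. Among the other 28 genes, which act mostly in mitosis, 15 were. Below 12 arrays were CCNE2 and BUB1 with 11, CCNA2 with 10, KIF23 and FOXM1 with 9, CCNB2 with 5, TTK with 4, BUB1B with 3, and KIF11 and PRC1 with 2. Over single probes, 24.0% of the 96 probes of the members were detected on no array, against 16.9% of all probes, and 46.9% on all 12 arrays, against 65.9% of all probes. A probe that is not detected gives only an upper bound, and a dim probe can be a poor probe as well as a rare RNA, since the files hold no measure of how well each one binds.

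**Figure D1:**
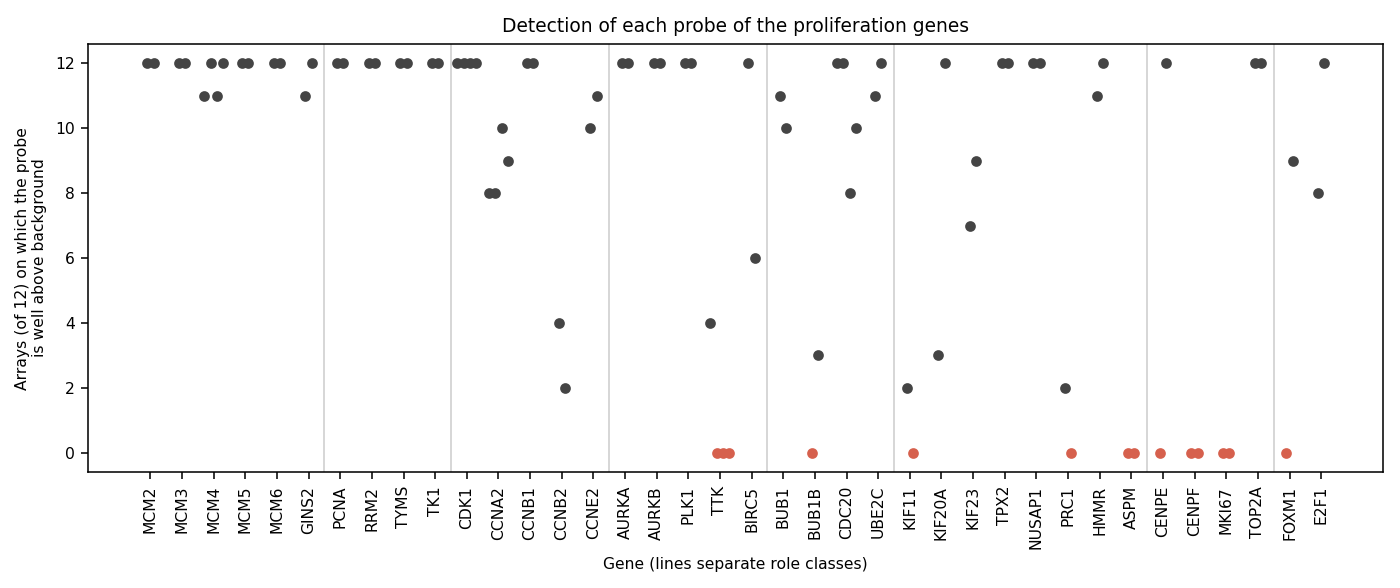
Each point is 1 probe of the transcript that stands for a gene, placed by the number of the 12 arrays on which it was well above background (y axis), with red points for probes on 0 arrays and vertical lines between role classes (x axis). The 10 replication genes on the left sit at 11 or 12 arrays, and MKI67, CENPF and ASPM have no probe above 0.

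The level of MKI67 was -8.05, -7.80, -8.43 and -8.38 in the YF, -8.48, -8.37, -8.30 and -8.52 in the OF and -8.22, -7.82 and -8.90 in the CP. These are values at background, so no fold is given, and the groups overlap. Neither transcript was detected. CCNB2 had a further transcript, detected on 3 arrays, and TTK had 1 and CENPE 2 that were detected on 0.

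Old against young females is the comparison the study was designed for. None of the 28 members tested passed limma at an adjusted p of 0.05 (0.0% of the 19755 transcripts tested did), and the lowest adjusted p of a member was 0.999. At an unadjusted p of 0.05, 2 members of 28 were called, both lower in OF (CCNE2 and UBE2C), beside 2.42% of all transcripts. No member had all OF on one side of all YF, where 0.931% of all transcripts had every OF higher and 0.597% every OF lower. Of the member differences, 21 of 28 lay below 0, against 48.3% of all transcripts tested, with a median log2 difference of -0.13 against 0.01 over all. For 22 of the 28 the difference was smaller than the SD between animals of a group. Without OF 0234 and 2258, 20 of 28 lay below 0 with a median of -0.18, and with the normexp background correction 15 did, against 36.2% of all transcripts. The list as a whole was not tested.

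The MCM proteins form the ring that unwinds DNA, and GINS2 belongs to the complex that activates it. All 6 of these genes were tested, 4 lower and 2 higher in OF, between -0.22 and 0.05. MCM6 had the widest difference of them. It read -3.18, -3.74, -3.51 and -3.64 in the YF, -3.65, -3.61, -4.54 and -3.14 in the OF and -4.84, -3.35 and -3.20 in the CP. The value of the OF lay lower through 1 animal, 0245, and the group difference of -0.22 (SE 0.29) turned to 0.05 without it. It was -0.58 without OF 0234 and 2258. MCM2, MCM3, MCM4 and MCM5 spanned only 0.95, 0.75, 0.65 and 0.86 on the log2 scale over all 11 animals, and their differences were -0.10 (SE 0.24), -0.17 (SE 0.17), 0.05 (SE 0.15) and 0.04 (SE 0.21). GINS2 was at -0.11 (SE 0.26). The 2 probe sequences of MCM4 had an r of only 0.14 over the animals.

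PCNA is the clamp that holds the polymerase on DNA. It read -2.19, -2.59, -2.30 and -2.30 in the YF, -2.19, -2.31, -2.51 and -1.91 in the OF, and -2.02, -2.22 and -2.20 in the CP. All 3 groups overlap, and OF minus YF was 0.12 (SE 0.17), but 0.01 without OF 2258, 0.03 without YF 1070 and -0.01 without OF 0234 and 2258. TYMS and TK1, which make thymidylate, differed by -0.44 (SE 0.27) and -0.08 (SE 0.30). The 2 probes of PCNA had an r of only 0.10 over the animals, and those of TK1 0.20.

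RRM2, the regulated subunit of the ribonucleotide reductase that makes deoxynucleotides (chr11:87466581-87473817), had the widest range of all members. It read -4.96, -5.32, -4.99 and -5.63 in the YF, -5.89, -3.21, -5.22 and -0.70 in the OF, and -5.79, -4.16 and -5.30 in the CP. Animals 2258 and 0234 were the highest of the 11, in that order, and the other 9 lay between -5.89 and -4.16. The range over the 11 animals was 5.18 on the log2 scale, or 36.4-fold. Its probes share no run longer than 5 bases and were both high, at -0.30 and -1.11 in OF 2258 and to -2.87 and -3.54 in OF 0234. OF minus YF was 1.47 (SE 1.0) in limma with an adjusted p of 0.999, so the difference was within the spread of the OF, and without the 2 animals it was -0.33 (SE 0.29). Without OF 2258 alone it was 0.45. They are the 2 with the highest smooth muscle markers, and the part of those markers in the RRM2 value was not tested.

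Among cyclins and their kinase, 4 of 5 genes were tested and 3 were lower in OF. CCNE2, the cyclin E2 that starts S phase with CDK2 (chr14:71808697-71818065), had the lowest difference of the list. It read -4.09, -5.33, -5.19 and -5.00 in the YF, -5.14, -5.72, -6.46 and -6.21 in the OF, and -4.97, -4.92 and -4.61 in the CP. Of the OF, 3 lay below every YF, and 0233 lay within their range. The YF averaged -4.90 ± 0.56 (SD, n = 4). The OF averaged -5.88 ± 0.59 (SD, n = 4), 1.98-fold below, but CCNE2 was well above background in 3 of the 4 OF, and the value of OF 0245 is an upper bound. The log2 difference was -0.98 (SE 0.36), with an unadjusted p of 0.0246 and an adjusted p of 0.999 by limma. The exact two-sided permutation p was 0.0857, where 4 animals against 4 cannot go below 0.0286. The difference was -1.20 on slide 1, where OF 0245 was the only OF, and -1.15 on slide 2, and the 2 probes gave -1.04 and -0.92. It was -0.90 without OF 0234 and 2258, and -0.71 without YF 1069, the smallest size with 1 animal left out. With the normexp background correction it was -0.16 (SE 0.145). CCNE2 was also the 1 member called lower of 38 by the fold change rank ordering of the study's methods, which called 2.06% of all transcripts lower and 2.88% higher, and 0 members higher.

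CDK1, CCNB1 and CCNA2 differed more between animals than between groups, and they were singled out after their values were seen. CDK1, the kinase that drives entry into mitosis, read -4.13, -3.32, -3.54 and -3.64 in the YF, -3.33, -4.84, -3.52 and -5.75 in the OF, and -3.22, -3.45 and -3.90 in the CP. Its 2 lowest animals were OF 2258 and 0234, those in which RRM2 was highest. Over the 11 animals, with group means removed, the r between the 2 genes was -0.90, a description that rests on those 2 animals. All 4 probes of CDK1 showed the dip, but its 2 sequences share a run of 43 bases and are not independent.

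CCNB1, the cyclin B1 that activates CDK1, read -0.51, 0.75, 2.50 and 2.25 in the YF, 1.97, 1.80, 2.11 and -0.43 in the OF, and 1.44, 1.07 and 1.29 in the CP. Its lowest animals were YF 1069 and OF 2258, those with the lowest epithelial markers, while OF 0234 lay with the rest. OF minus YF was 0.11 (SE 0.79). KIF23, a kinesin of the cleavage furrow that was too dim to be tested, was lowest in the same 2 animals, at -8.43 in OF 2258 and -7.56 in YF 1069, and next in CP 1068 at -7.11, with the others between -6.64 and -4.60. No probe of KIF23 was well above background in OF 2258, YF 1069 or CP 1068, so these values are upper bounds and their order is not known. The part of the epithelial share in the CCNB1 and KIF23 values was not tested.

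**Figure D2:**
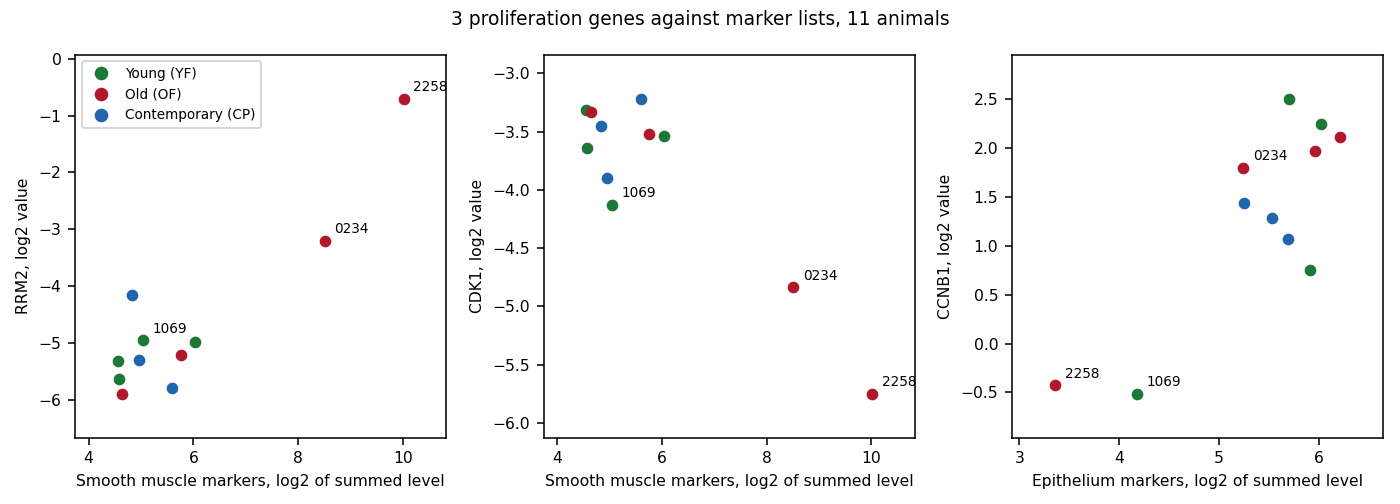
Each point is 1 of the 11 animals, with the level of RRM2, CDK1 or CCNB1 (log2 value, y axes) against the log2 of the summed level of the smooth muscle or epithelial markers (x axes), green for YF, red for OF and blue for CP. OF 2258 and 0234 stand apart on the smooth muscle axis, with RRM2 at -0.70 and -3.21 and CDK1 at -5.75 and -4.84, and OF 2258 and YF 1069 stand at the low end of both axes for CCNB1.

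CCNA2, the cyclin A2 of S and G2 phase, read -5.35, -5.87, -5.62 and -5.47 in the YF, -5.59, -5.46, -7.64 and -5.64 in the OF, and -7.08, -5.45 and -5.40 in the CP. The low animals were OF 0245 and CP 1068, in which no probe was well above background, so both values are upper bounds. HMMR, which encodes a spindle and hyaluronan-binding protein, was lowest in the same animals: it read -3.12, -3.79, -2.88 and -2.73 in the YF, -3.00, -3.23, -4.80 and -3.50 in the OF, and -4.73, -3.23 and -2.63 in the CP. With MCM6, described above, 3 genes on chromosomes 6, 7 and 2 were lowest in the same OF and the same CP, by all of their probes. The r between them over 11 animals, with group means removed, was 0.92 for CCNA2 and HMMR, 0.91 for MCM6 and CCNA2 and 0.84 for MCM6 and HMMR. The 3 genes were put together after their low values in these 2 animals were seen. The r values are therefore a description that rests on those 2 animals. In OF 0245 and CP 1068 the smooth muscle sum was 5.76 and 5.59, the epithelial sum 6.21 and 5.25 and the level of PCNA -2.51 and -2.02, none of them outside the range of the other animals but for the epithelial sum of OF 0245, the highest of the 11. The 2 animals lay on different slides. Both had dim arrays, with a 75th percentile intensity before scaling of 1179 in OF 0245 and 1030 in CP 1068. It was also low in OF 2258 (967.5), OF 0234 (1162) and YF 1069 (1207), against 1263 to 1597 in the others. The part of array brightness in the values of these animals was not tested. OF minus YF was -0.50 (SE 0.41) for HMMR and -0.51 (SE 0.46) for CCNA2. Without OF 0245 the difference of HMMR was -0.11, and without OF 0234 and 2258 it was -0.77.

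**Figure D3:**
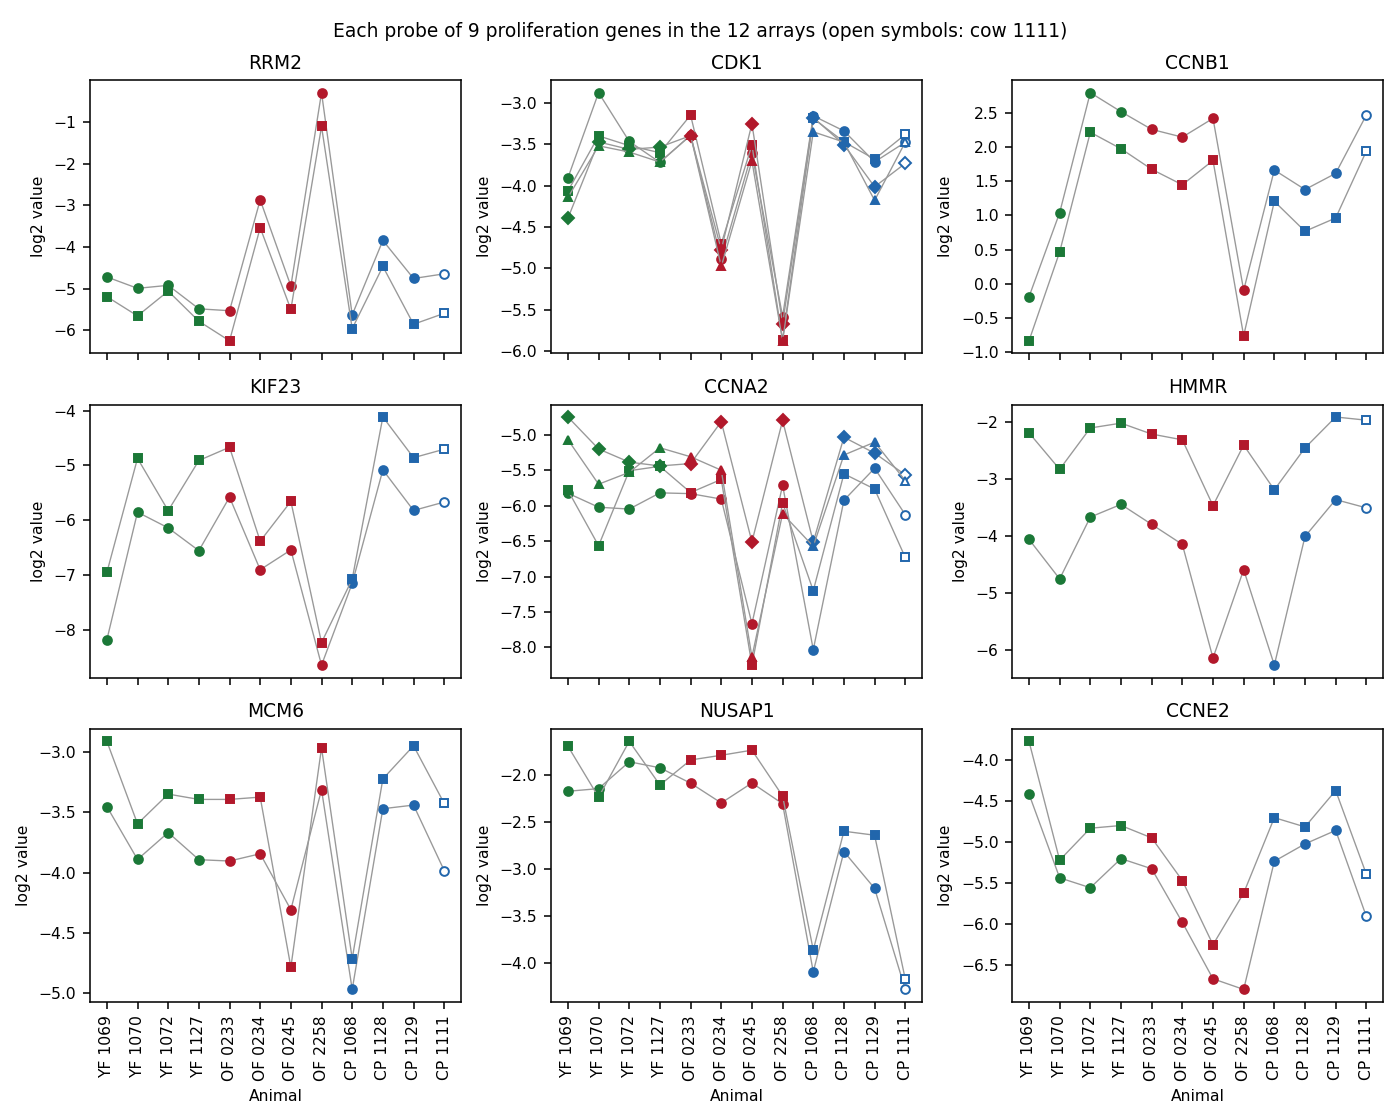
The log2 value (y axes) of every probe of 9 members in each of the 12 animals (x axes), with 1 line and symbol shape a probe, green for YF, red for OF, blue for CP and open symbols for cow 1111. In these 9 members, unlike in some others, the probes of 1 gene rise and fall together. RRM2 peaks and CDK1 dips in OF 0234 and 2258, CCNA2, HMMR and MCM6 dip in OF 0245 and CP 1068, and NUSAP1 is low in the CP.

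Of the mitotic kinases and their passenger complex, 4 were tested and all 4 lay below 0 in OF minus YF, between -0.52 and -0.01. BIRC5, the passenger protein survivin, had the widest difference. It read -4.25, -4.83, -4.24 and -4.44 in the YF, -4.38, -4.87, -5.09 and -5.51 in the OF, and -5.01, -3.91 and -4.58 in the CP. The groups overlap, and the difference of -0.52 (SE 0.26) had an unadjusted p of 0.0730 and an adjusted p of 0.999 by limma. It was -0.30 without OF 0234 and 2258 and -0.08 with normexp. The dimmer probe of BIRC5 was detected on 6 of 12 arrays and had an r of 0.04 with the brighter one over the animals. AURKB and PLK1, kinases of the spindle and of cytokinesis, were nearest to 0, at -0.01 (SE 0.15) and -0.14 (SE 0.20), and the 2 probes of AURKB went opposite ways (-0.12 and 0.10), with an r of -0.69 over the animals. AURKA, which matures the spindle poles, was at -0.18 (SE 0.17).

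The anaphase promoting complex ends mitosis by marking cyclin B for destruction, with UBE2C as its conjugating enzyme and CDC20 as its activator. The 3 tested genes of this class all lay below 0. UBE2C read -4.52, -4.46, -4.45 and -4.43 in the YF, -4.44, -4.98, -5.15 and -5.14 in the OF, and -4.55, -3.84 and -4.42 in the CP. The YF lay close together, 3 OF lay below all of them, and OF 0233 lay inside their range. The difference was -0.47 (SE 0.18), with an unadjusted p of 0.0298 and an adjusted p of 0.999 by limma, and the exact two-sided permutation p was 0.114. It was -0.69 on slide 1 and -0.38 on slide 2, and the probes gave -0.57 and -0.36. With normexp it was -0.09. CDC20 and BUB1 differed by -0.13 (SE 0.18) and -0.42 (SE 0.34). The brighter sequence of CDC20 gave 0.18 and 0.16 on its 2 spots and the dimmer one -0.23 and -0.63, with an r of -0.39 between them, and BUB1 was at background in OF 0245.

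Kinesins and spindle proteins gave 4 tested genes, all below 0: HMMR, TPX2 at -0.46 (SE 0.29), KIF20A at -0.24 (SE 0.32) and NUSAP1 at -0.07 (SE 0.15). TOP2A, the topoisomerase that untangles chromosomes, stood for the chromosome class. It read -4.37, -4.55, -4.21 and -4.16 in the YF, -4.04, -4.63, -4.20 and -4.87 in the OF, and -4.34, -4.29 and -3.79 in the CP. Its groups overlap, and the difference of -0.11 (SE 0.21) changed sign with the brighter probe alone, with another background correction and without OF 2258. Its 2 probes had an r of -0.22 over the animals. CENPE, a kinetochore motor, was detected by 1 of the 2 probes of its transcript, which differed by -0.10 between OF and YF.

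E2F1, the factor that switches on the S phase genes, had the highest difference after RRM2. It read -5.86, -5.94, -6.50 and -6.06 in the YF, -6.02, -5.64, -5.30 and -5.68 in the OF, and -5.93, -5.40 and -5.69 in the CP. Only OF 0233 lay within the range of the YF. The difference was 0.43 (SE 0.20), with an unadjusted p of 0.0663 and an adjusted p of 0.999 by limma, and it came mostly from the dimmer probe (0.70 against 0.16). It was 0.18 within slide 2 and 0.22 with normexp. The probes of E2F1 had an r of 0.20 over the animals.

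The other 10 members were too dim to be tested in OF minus YF, since no probe of theirs was well above background on every array of either group. FOXM1, the factor that switches on mitotic genes, read between -7.89 and -6.51 in the YF, -7.33 and -6.08 in the OF, and -7.53 and -6.49 in the CP. Cyclin CCNB2 lay between -8.06 and -6.12 over the 11 animals, the checkpoint kinase TTK between -7.86 and -6.89, the kinesin KIF11 between -8.87 and -6.96 and the midzone protein PRC1 between -8.24 and -6.88. ASPM and CENPF lay between -8.80 and -7.91 and between -8.99 and -8.23. The groups overlap in each of these genes, and the values near background carry no fold.

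**Figure D4:**
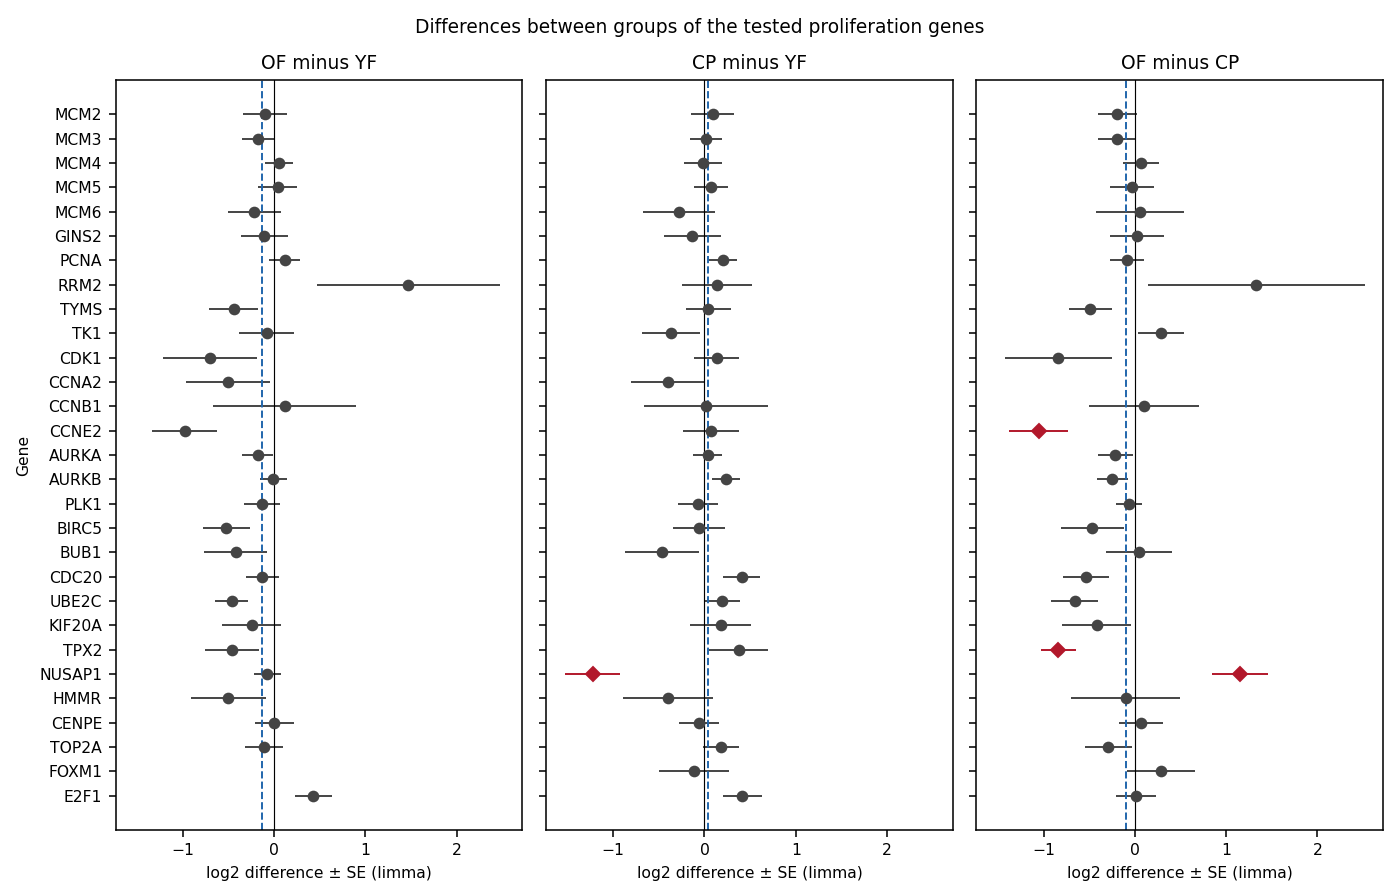
Log2 differences of the tested members (y axis) with the standard error of limma (x axes) in the 3 comparisons, with red diamonds where the groups do not overlap and a dashed line at the median of the members. The median is -0.13 in OF minus YF, 0.03 in CP minus YF and -0.09 in OF minus CP, and the red diamonds are NUSAP1, CCNE2 and TPX2.

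Contemporary against young females gave a median near 0. None of the 29 members tested passed limma at an adjusted p of 0.05, with 0.0% of 19993 transcripts, and 1 passed at an unadjusted p of 0.05, with 3.03% of all. Below 0 were 12 of 29, against 54.6% of all transcripts, and the median was 0.03 against -0.02 over all. In 1 member, NUSAP1, every CP lay below every YF, as in 2.32% of all transcripts, and in 0 members every CP lay above, as in 1.51%. Both this comparison and the one above use the same YF, so their values are not independent.

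NUSAP1, a microtubule-binding protein of the spindle (chr10:36906002-36936265), read -3.98, -2.71 and -2.92 in the CP, -1.94, -2.19, -1.76 and -2.02 in the YF, and -1.97, -2.05, -1.91 and -2.27 in the OF. Every CP lay below all YF and all OF, which overlap. Cow 1111, outside the group, was the lowest of the 12 at -4.22. CP minus YF was -1.23 (SE 0.31), 2.34-fold lower, with an unadjusted p of 0.00418 and an adjusted p of 1.0 by limma. OF minus CP was 1.15 (SE 0.31), with an unadjusted p of 0.00674 and an adjusted p of 0.904 by limma. Exact two-sided permutation gave 0.0571 in each comparison, the smallest value that 3 animals against 4 allow. Within slide 2 the differences were -1.23 and 1.11, and without CP 1068 they were -0.84 and 0.77. Its probes share 47 bases, so they do not measure separate stretches, but both were detected on all 12 arrays and gave -1.34 and -1.11 against YF.

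Old against contemporary females was the third comparison. None of 28 members tested passed limma at an adjusted p of 0.05, with 0.0% of 19914 transcripts, and the lowest adjusted p was 0.766, that of TPX2. At an unadjusted p of 0.05, 4 of 28 were called, beside 4.57% of all: CCNE2, UBE2C and TPX2 lower in OF, and NUSAP1 higher. Every OF lay below every CP in 2 members, CCNE2 and TPX2, beside 2.86% of all transcripts, and above in 1, NUSAP1, beside 2.93%. Below 0 were 17 of 28, against 43.6% of all, and the median was -0.09 against 0.04 over all.

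TPX2, the protein that brings AURKA to the spindle (chr13:61831821-61885788), read -3.04, -3.37, -3.21 and -3.61 in the OF, -2.29, -2.66 and -2.46 in the CP and -2.73, -2.20, -2.80 and -3.65 in the YF. Every OF lay below every CP, while the YF spread across both. OF minus CP was -0.84 (SE 0.19), with an unadjusted p of 0.00296 by limma, and the exact two-sided permutation p was 0.0571. Without OF 0234 and 2258 it was -0.66, with normexp -0.54, and the probes gave -0.70 and -0.98. CCNE2 was lower in every OF than in every CP, at -1.05 (SE 0.32), with an unadjusted p of 0.0130 by limma and the same smallest exact permutation p. The groups overlapped once cow 1111 (-5.65) was included, and also with normexp, where the difference was -0.16. BUB1B, a checkpoint kinase near background, read -7.34, -7.66, -7.89 and -7.49 in the OF and -6.99, -6.14 and -6.61 in the CP. Its groups do not overlap, but it was detected in 0 OF and 2 CP, entered no test and gets no fold.

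The next question was whether the members varied together among animals. With group means removed, the mean pairwise r over the 11 animals was 0.08 among the 29 members tested in any comparison, beside 0.01 over all 20082 tested transcripts. Of 406 pairs of members, 20 had an r over 0.7 and 6 an r under -0.7. The replication genes had a mean pairwise r of 0.15 and the others of 0.06. Most like the mean of the other members was MCM2, with an r of 0.79, and 20 of the 29 had an r above 0. CCNB1 (-0.36), TK1 (-0.28), RRM2 (-0.11) and CDK1 (-0.11) were among those below 0. The closest pair was GINS2 and BUB1, with an r of 0.97, followed by CCNA2 and HMMR.

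Averaged over the 27 members tested in all 3 comparisons, the level of an animal relative to the mean of the 11 lay between -0.19 in OF 0245 and 0.21 in YF 1069. The YF averaged 0.05 ± 0.14 (SD, n = 4), the OF -0.09 ± 0.09 (SD, n = 4) and the CP 0.04 ± 0.12 (SD, n = 3). Over the 16 genes of cyclins and mitosis the means were 0.12 ± 0.11, -0.18 ± 0.21 and 0.09 ± 0.14, and over the 10 of replication -0.01 ± 0.23, 0.04 ± 0.29 and -0.04 ± 0.11, in the same order. The OF were not alike in this. For cyclins and mitosis OF 2258 and 0234 lay at -0.44 and -0.18, and OF 0233 and 0245 at 0.08 and -0.19. For replication OF 2258 and 0234 lay at 0.32 and 0.25, and OF 0233 and 0245 at -0.15 and -0.255. OF 2258 was the lowest of the 11 animals in 7 of the 27 members and the highest in 3, and YF 1069 was the highest in 8.

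**Figure D5:**
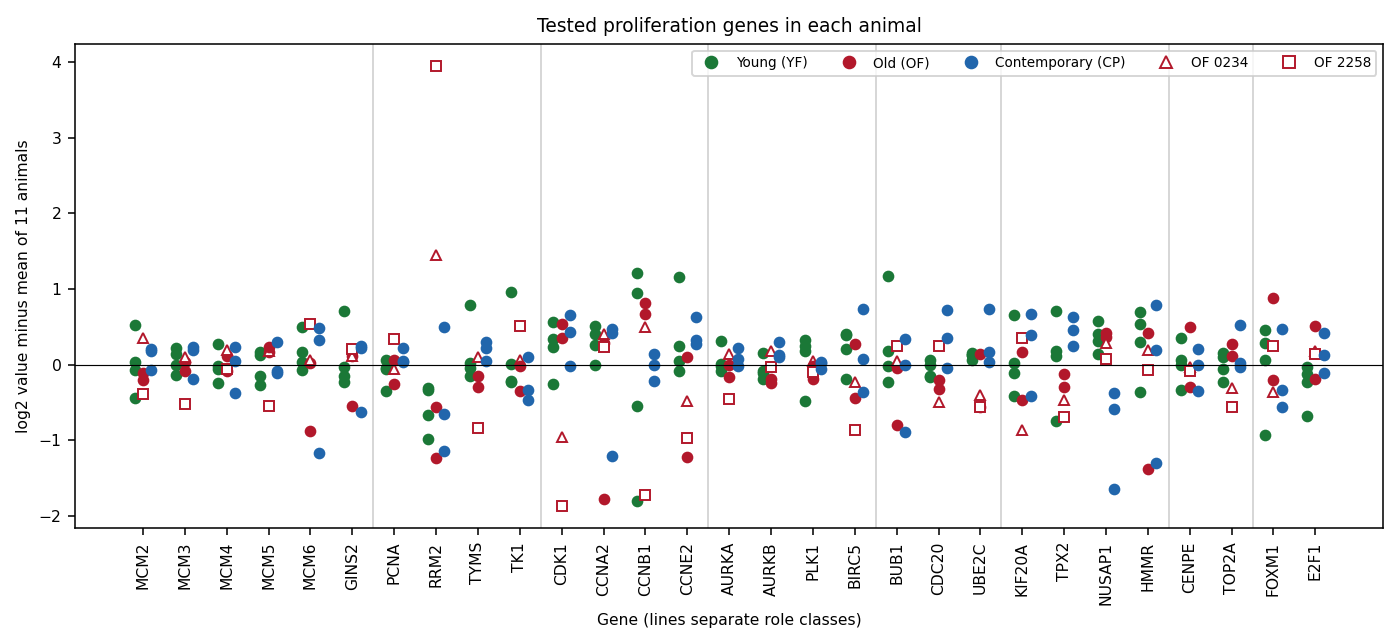
The log2 value of each tested member (x axis) minus its mean over the 11 animals (y axis), with 1 point an animal, green for YF, red for OF and blue for CP, and open red symbols for OF 0234 and OF 2258. RRM2 of OF 2258 lies highest, CDK1 of the same animal lowest.

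The 15 non-member transcripts whose deviations were most like the mean of the members had an r between 0.89 and 0.96 over the 11 animals. Among those with a gene symbol were MITF, NAT6, CIRBP, STT3B, HECTD3, PAQR7, SMOC2 and NR3C2, with 2 copies of 5S rRNA. None of these is on the lists of cell cycle genes used here.

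A wider list of cell cycle genes that are not members was counted in the same way. Of its 104 genes, 98 were on the array and 81 were tested in OF minus YF, where 0 passed at an adjusted p of 0.05 and 3 at an unadjusted p of 0.05 by limma, all 3 from the mitosis list, beside 2.42% of all transcripts. Every OF lay above every YF in 1 of the 81 and below in 1, beside 0.931% and 0.597% of all. NDC80, a kinetochore protein, was higher in every OF than in every YF, at 0.68 (SE 0.24). Its YF values (-7.31 to -6.89) lay below the lowest value called well above background on their arrays, as did its CP values. The average of NDC80 thus takes in a probe at background. PTTG1, the securin that holds back the separation of sister chromatids, was lower in every OF than in every YF, at -0.46 (SE 0.15). MELK, a mitotic kinase, differed by -0.51 (SE 0.22). Of the S phase genes 26 of 30 lay below 0 in OF minus YF, with a median of -0.16, and of the mitosis genes 19 of 26, with a median of -0.10, beside 48.3% of all transcripts. In CP minus YF, 14 of 30 S phase and 5 of 25 mitosis genes lay below 0, beside 54.6% of all, and in OF minus CP 23 of 29 and 21 of 26 did, beside 43.6%.

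The CDK inhibitors brake the cycle. All 6 tested lay above 0 in OF minus YF, with a median of 0.31, and 0 passed at an unadjusted p of 0.05 by limma. In CP minus YF 6 of 7 lay above 0, with a median of 0.28, and in OF minus CP 6 of 7, with a median of 0.04. Of all transcripts tested, 48.3% lay below 0 in OF minus YF, 54.6% in CP minus YF and 43.6% in OF minus CP. Their summed level was 4.02 in OF 2258 and 2.59 to 3.17 in the other 10 animals, and OF 2258 is also the animal with the highest smooth muscle markers. Of the 8 genes of G1 control, 5 lay above 0 in OF minus YF, 8 in CP minus YF and 5 in OF minus CP. MYC, a growth regulator, was at 2.42 in OF 2258 and at 0.83 in the next highest animal, CP 1068. MYBL2, the partner of the complex that drives mitotic genes, was lower in every CP than in every YF, at -0.63 (SE 0.19), and lower than in every OF. Its adjusted p by limma was 0.9999 and 0.904. In CP minus YF 3 of 81 genes of the wider list (RFC3, E2F7 and MYBL2) had every CP lower and 0 higher, beside 2.32% and 1.51% of all transcripts. In OF minus CP 2 of 81 (NDC80 and MYBL2) had every OF higher. CENPN, NCAPG, PBK, PTTG1 and TROAP, 5 of 81, had every OF lower, beside 2.93% and 2.86%.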

How the data were processed

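Endometrial biopsies of 12 cows were measured on custom bovine Agilent arrays (annotation of UMD3.1). The authors deposited, per the file headers, the intensity of each spot as Agilent Feature Extraction 10.7.3.1 wrote it (background-subtracted processed signal, mean and local background signals) with 0 or 1 flags for spots well above background, saturated or outlying. Nothing had been normalised between arrays.

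Here, 1319 control spots and 66 flagged probes were left out, and log2 of the processed signal minus the 75th percentile of the array was averaged over the probes of a transcript. Where a gene had several transcripts, the one with the highest mean stands for it. A transcript was tested where a probe of it was well above background on every array of at least 1 of the groups compared. Each pair of groups was fitted by lmFit and eBayes of limma (version 3.58.1, run in R 4.3.3), with Benjamini-Hochberg adjustment over all tested transcripts, and single genes with exact two-sided permutation tests in scipy 1.17.1. Fold change rank ordering (FCROS), the method of the study, was coded anew and called transcripts at an f-value below 0.025 or above 0.975 and a fold change of 1.5. The fits were tested on simulated data. Precision is limited by the number of animals. P-values measure the spread between animals, and the clones of 1 donor do not stand for unrelated cows.

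Given animal by animal were MKI67, TOP2A and PCNA, the member of each role class with the largest absolute OF minus YF difference, and each member whose groups do not overlap. CDK1, CCNB1, CCNA2, KIF23 and BUB1B were added after their values were seen, as were MYC and the other single genes of the wider lists. The members and lists were chosen with earlier results of these data known. Alternatives were another background correction (normexp, offset 50), median centring, quantile normalisation, the brightest probe, no filter, a block for the slide, 1 joint fit of the groups, cow 1111 included and each animal left out. Chosen after seeing the data were averaging of detected probes only, slide 2 only, and leaving out OF 0234 and 2258 together.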

Additional observations from a re-analysis of the deposited data

Results flagged for a closer look

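In 58 groups of 4 animals checked (YF and OF of 29 members), 4 were singled out. In each of these 4 members, 1 OF lay far from the other 3, with a gap to its nearest neighbour above the 95% critical value of Dixon's test, which chance passes in about 1 of 20 groups. MCM5 was at -0.1465 in OF 2258, low, with a gap of 0.902 of the range of the group. CCNB1 was at -0.4266 in OF 2258, low, with a gap of 0.876. CCNA2 was at -7.641 in OF 0245, low, with a gap of 0.916, and that value is an upper bound. GINS2 was at -5.453 in OF 0245, low, with a gap of 0.877.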

How the results depend on the processing

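No member passed an adjusted p of 0.05 in limma under the alternatives fitted (within slide 2 alone no fit was made), and the lowest adjusted p of a member named animal by animal was 0.577 by limma. Of 355 alternative values, 7 changed sign and 23 counts or medians moved, while the other 325 kept their direction and their side of the threshold, if not their size. With normexp, OF minus YF was -0.16 for CCNE2, -0.09 for UBE2C, -0.08 for BIRC5, -0.21 for HMMR and -0.05 for MCM6. The sign changed for MCM6 (OF minus YF) to 0.053 without OF 0245, in a range of -0.42 to 0.053 with 1 animal left out, for RRM2 to -0.33 and PCNA to -0.0055 without OF 0234 and 2258, and for TOP2A to 0.049 with the brightest probe, 0.074 with normexp, 0.20 without both OF and 0.035 without OF 2258, in a range of -0.24 to 0.035 with 1 animal left out. The median over members in OF minus YF was -0.0152 with normexp. For the counts of members that follow, the share over all transcripts under the same setting is not given. Groups with fewer animals stay apart more easily, so a higher count there is no result about the members. Members whose groups do not overlap numbered 0 to 4 in OF minus YF when 1 animal was left out, and 2 without OF 0234 and 2258. In CP minus YF they numbered 1 to 6 with 1 animal left out, and 3 with median centring and with quantile normalisation. In OF minus CP they numbered 3 to 6 with 1 animal left out, 2 with cow 1111 included and with normexp (CCNE2 is lost in both), 5 with the brightest probe and with median centring, and 8 without OF 0234 and 2258. NUSAP1 was among them in both comparisons under every alternative in which overlap was counted. FCROS called 0 members with normexp and 1 to 5 with 1 animal left out, the 5 without OF 0233. The causes were not tested. Dim probes give only bounds, and 22 of the 38 genes have a probe that was not detected on some array. No paired analysis was possible because the groups share no replicate numbers.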

Other observations

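Cow 1111, the contemporary animal left out by the authors, lay at -0.05 for the mean of the 27 members relative to the 11 animals in use, inside their range of -0.19 to 0.21. Its NUSAP1 value of -4.22 was the lowest of the 12 animals, its CCNB1 was at 2.20, its RRM2 at -5.12 and its CDK1 at -3.52. The summed smooth muscle markers were at 5.60 in this cow and the epithelial ones at 5.76, both inside the range of the YF.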
